A study of Homo sapiens with 8 samples.

Results

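The nuclear genes for the 5 complexes of mitochondrial oxidative phosphorylation were followed in HepG2 cells with and without an siRNA against NAT10. Members were taken by gene symbol: protein-coding genes of GENCODE that start with NDUFA, NDUFB, NDUFC, NDUFS, NDUFV, UQCR, COX4 to COX8 or ATP5, together with SDHA, SDHB, SDHC, SDHD, CYC1 and CYCS. This gave 98 of the 86369 genes in the deposited count table. Of these, 89 were taken as subunits of the complexes. They were 37 genes of complex I, 4 of complex II, 10 of III, 19 of IV and 19 of V. Complex IV here includes NDUFA4 and its paralogue NDUFA4L2, and complex V includes ATP5IF1, the inhibitor of ATP synthase. The other members were CYCS and the 8 NDUFAF genes, which encode assembly factors of complex I and came in through the NDUFA prefix. Another 187 genes with a matching symbol were not protein-coding and 2 were readthrough transcripts, and both kinds were left out.

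HepG2 is an established hepatocellular carcinoma line. The control cells received a negative control siRNA (siCtrl) and the knockdown cells an siRNA against NAT10 (siNAT10), both by lipofection, and RNA was taken at day 2. Each group had 4 libraries of polyadenylated RNA read at the 3' end, and the labels put replicates 1 and 2 of either group in batch 1, replicates 3 and 4 in batch 2. The number and sequences of the siRNAs are not given in the sources used here, and nothing in the labels says that the replicates were separate cultures, so p-values measure the spread between these libraries.

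The oxidative phosphorylation system passes electrons from NADH (complex I) and succinate (complex II) through complex III and cytochrome c to oxygen at complex IV, and ATP synthase (complex V) makes ATP from the proton gradient that builds up. Except for complex II, each complex combines a few subunits encoded in mitochondrial DNA with many encoded in the nucleus, so that the assembled enzyme draws on both genomes. In hepatocytes the system supplies ATP for synthesis and secretion, and many of its nuclear genes are known targets of the transcription factors NRF1, GABPA and YY1. NAT10 encodes an RNA cytidine acetyltransferase.

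Libraries held between 9731718 and 27977110 counts, and 13840 genes passed the low-count filter. Levels are given as CPM, counts scaled to a common library total, and in a 3' library a count stands for a transcript end and does not grow with transcript length. NAT10 was at 44.7, 39.2, 77.8 and 48.9 CPM in siCtrl replicates 1 to 4 and at 13.1, 12.2, 20.1 and 22.3 CPM in siNAT10 replicates 1 to 4, a log2 fold change of -1.66 with an SE of 0.14 (adjusted p = 2.0e-05, edgeR). Of the hepatocyte markers, ALB stood between 3232 and 4627 CPM while APOB, a defining hepatocyte gene, had counts in siCtrl replicate 3 only. Summed over 10 hepatocyte markers the level was 17422 to 19737 CPM in control cells and 13013 to 15320 CPM in knockdown cells, with no overlap. The marker with the highest mean, 7838 CPM, weighs most in this sum. Of the 9 tested markers, 7 had a log2 fold change below 0 and 2 above, up to 0.37. At an unadjusted p under 0.05, 5 were lower and 1 higher (edgeR). Only TF was called, as lower (adjusted p = 0.023, edgeR). The part of these marker differences in the results below was not tested. Endothelial markers (1 of 4 at 0 in all libraries) and fibroblast markers (3 of 5 at 0) each summed to at most 0.796 CPM in a library, and leukocyte markers (3 of 4 at 0) to 1.55 to 2.81 CPM. In bulk RNA, fewer cells of a type and less RNA per cell cannot be told apart.

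Among the members, 82 passed the filter: 30 subunits of complex I, 3 of complex II, 9 of complex III, 13 of complex IV, 18 of complex V, all 8 assembly factors and CYCS. Complex V had the highest summed level, 5252 to 7613 CPM over its tested subunits in the 8 libraries. Complex I summed to 4048 to 5552 CPM, complex IV to 3270 to 4445 CPM, complex III to 2326 to 2741 CPM and complex II to 108 to 147 CPM. These sums cover unequal numbers of genes and leave out the untested subunits, 7 of 37 in complex I among them. Their order is therefore that of the counted genes only. The transcript with the highest mean was ATP5MC3, with 1202 CPM, which encodes the c subunit of the rotor ring of ATP synthase. COX7A2 led complex IV with a mean of 724 CPM and UQCRQ led complex III with 629 CPM. SDHA, the flavoprotein of complex II, had 120 CPM.

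**Figure D1:**
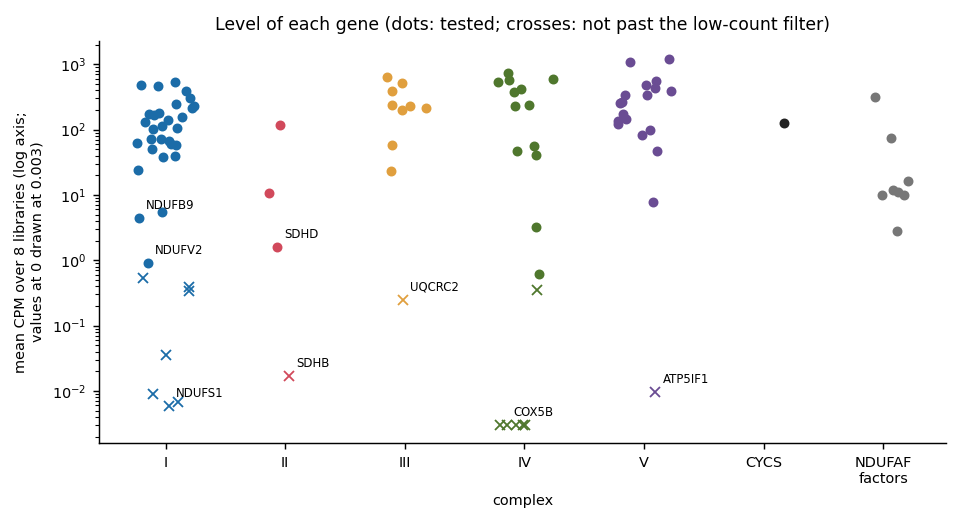
Mean CPM over 8 libraries of each of the 98 genes, on a log axis, by complex. Dots are the 82 tested genes and crosses the 16 that did not pass the low-count filter; genes at 0 are drawn at the bottom. Complexes I, II, III, IV and V each hold genes at or near 0, COX5B among them.

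Transcripts of genes assigned to the complexes were not all counted, and subunits that an assembled complex needs were among those missed. COX5B, a subunit of complex IV in all tissues, was listed at 0 in all 8 libraries. NDUFS1, which carries iron-sulphur clusters of complex I, had 1 count in all libraries together, as did NDUFB10, NDUFA3 and ATP5IF1, the inhibitor of ATP synthase. SDHB, the iron-sulphur subunit of complex II, had 2 counts and NDUFA6 had 6. UQCRC2 (a core protein of complex III), NDUFS3, NDUFA11 and NDUFA7 had between 36 and 84 counts in total, and none of these 11 genes was tested. These values are listed as deposited, and no level or absence of the transcripts is read from them.

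The position of other genes at the 3' end was examined for the 89 members that are not tissue isoforms or retrocopies. In the last 300 bases of the transcript, 18 of them overlapped an exon of another gene, of which 3 were among the untested. The other 71 had no overlap, and 8 of those were untested. A near-identical copy of the window (at least 95% identity over at least 90% of it) was found in the genome for 10 members: ATP5MF, ATP5MK, ATP5PD, COX6A1, NDUFAF2, NDUFB3, NDUFV2, SDHC, SDHD and UQCRH. All 10 were tested, and 8 of the 11 untested genes had neither an overlap nor a copy. The counts of these 10 and of overlapping genes such as ATP5F1E (TUBB1 on the other strand), ATP5ME (MYL5) and ATP5MC3 (a Y RNA) are uncertain, since strand and multimapping settings are not given in the sources used here.

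Tissue isoforms were counted far below their broadly expressed partners. COX6A2, COX7A1, COX7B2 and COX8C, isoforms of muscle or testis, were at 0 in all 8 libraries. COX5B was at 0 as well, so no limit on their expression is read from these values. The partners COX6A1, COX7A2, COX7B and COX8A had mean levels of 41.2, 724, 56.2 and 380 CPM. COX4I1 stood at 598 CPM and COX4I2, the isoform of lung and hypoxia, had 49 counts in all. COX6B2, a testis isoform, was between 0.0978 and 1.26 CPM against 337 to 494 CPM for COX6B1. NDUFA4L2, the hypoxia-induced paralogue of NDUFA4, had between 1.49 and 4.65 CPM against 39.9 to 51.0 CPM for NDUFA4.

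The siRNA comparison asked whether transcripts of the complexes changed when NAT10 was depleted. No member was called higher or lower at an adjusted p under 0.05 (edgeR quasi-likelihood test, batch as a term, 82 members tested), where 1.46% of all 13840 genes were called lower and 0.816% higher. At an unadjusted p under 0.05, 11 members were on the lower side and 2 on the higher side (edgeR), beside 1141 lower and 1032 higher genes of 13840, or 15.7% in all. DESeq2 gave 13 members an unadjusted p under 0.05 and called 2, ATP5MC2 (adjusted p = 0.017) and NDUFV3 (adjusted p = 0.019). It called 567 genes in all, out of 27941 with any count. That total includes genes left without an adjusted p, 14 members among them, so the share called is not comparable with that of edgeR. With the replicate number as a block, edgeR called 1 member, NDUFV3 (log2 fold change -0.40, adjusted p = 0.043), among 454 genes in all. No member was called by edgeR when any library was left out.

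The fitted differences were small. Of the 73 tested subunits, 62 had a 95% interval that lay within 1.5-fold on either side, and the fitted change of 71 was under 25%. The distance from the estimate to the edge of its interval had a median of 0.24 on the log2 scale. The median absolute log2 fold change was 0.125 over the subunits and 0.157 over all genes tested. Median SEs were 0.113 and 0.143, at median levels of 166 and 15.5 CPM. The share of all genes within 1.5-fold was not computed. The 11 subunits whose interval reached 1.5-fold were NDUFA1, NDUFA13, NDUFB2, NDUFB7, NDUFB9, NDUFV2, NDUFV3, SDHD, COX6B2, NDUFA4L2 and ATP5MGL. The intervals of NDUFV3, NDUFB2 and ATP5MGL did not include 0 before adjustment. All 9 tested subunits of complex III lay inside the bound, as did 17 of 18 in complex V.

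The signs were uneven. Fitted log2 fold changes were below 0 for 57 of the 73 subunits, against 6968 of 13840 genes (50.3%). By complex this was 19 of 30 in complex I, 2 of 3 in complex II, 7 of 9 in complex III, 12 of 13 in complex IV and 17 of 18 in complex V. The medians were -0.07, -0.14, -0.06, -0.10 and -0.12 for complexes I to V, beside -0.0024 over all genes tested. These are counts and medians of values that did not pass the test for any gene, and the subunits share libraries, so they are not independent. Without siNAT10 replicate 4 the number below 0 was 44, with 8 of 13 in complex IV and 13 of 18 in complex V, and the median over all subunits went from -0.09 to -0.04. Without siCtrl replicate 3 it was 47, with 11 of 18 in complex V, and the median was -0.05. Scaling by library size alone gave 50 and a median of -0.04, where the median of all genes moved to 0.04. Other settings went the other way. Without siCtrl replicate 2 the number was 59 with a median of -0.13. Without siNAT10 replicate 3 it was 59 with a median of -0.12, and 18 of 18 in complex V were below 0.

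The extremes followed the batch in part. siCtrl replicate 3, of batch 2, had the highest CPM of the 8 libraries for 33 of the 82 members (40.2%), against 15.7% of all genes. The next, also of batch 2, were siNAT10 replicate 3 with 17 members (20.7%, against 13.3%) and siCtrl replicate 4 with 16 (19.5%, against 10.2%). In the same batch, siNAT10 replicate 4 was highest for 3 members (3.7%, against 15.8%) and lowest for 11 (13.4%, against 15.7%). At the other end, siCtrl replicate 2, of batch 1, was lowest for 22 members (26.8%, against 12.04% of genes). The next, also of batch 1, were siNAT10 replicate 1 with 17 (20.7%, against 12.4%) and siNAT10 replicate 2 with 16 (19.5%, against 10.5%). siCtrl replicate 1, of that batch too, was lowest for 3 (3.7%, against 10.2%).

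Read against the batch, 12 of 82 members (14.6%) had each siNAT10 library below both siCtrl libraries of its own batch, where 7.9% of all genes did. They were NDUFV3, NDUFB1, NDUFB4 and NDUFB5 of complex I, SDHC of complex II, COX5A of complex IV, ATP5MC2, ATP5MC3, ATP5F1B and ATP5F1E of complex V, and the assembly factors NDUFAF1 and NDUFAF3. No subunit of complex III was among them. Only NDUFAF6 lay above in each library, 1 of 82 members against 6.76% of genes. Within batch 1 the medians for complexes I to V were -0.05, -0.04, -0.0024, -0.06 and -0.04, and within batch 2 they were -0.05, -0.24, -0.12, -0.14 and -0.14. A test of whether the siRNA effect differed by batch called 0% of genes (edgeR) and no member (edgeR and DESeq2), with 421 genes and 1 member, ATP5MC1, at an unadjusted p under 0.05 (edgeR).

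**Figure D2:**
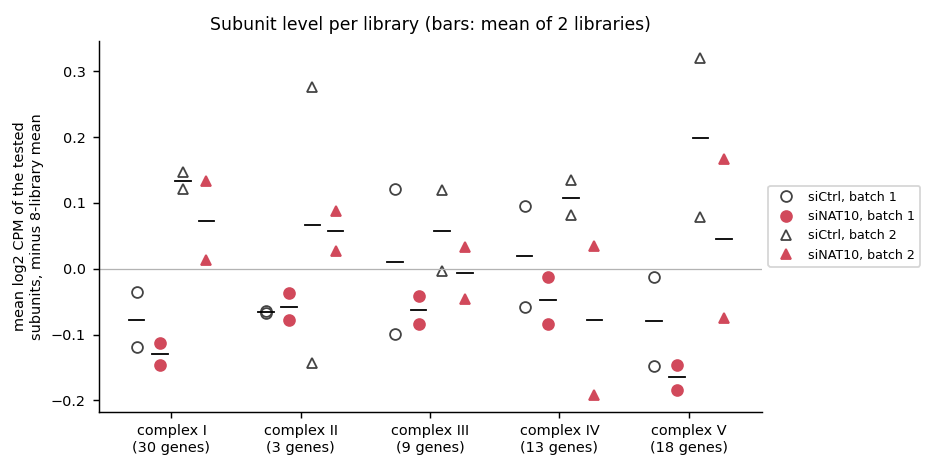
Mean log2 CPM of the tested subunits of each complex in each library, minus the mean over 8 libraries, by group and batch; bars are the means of 2 libraries. The groups overlap in each complex when batches are pooled, and in complex V the siCtrl libraries of batch 2 lie at 0.32 and 0.08 and the siNAT10 libraries at 0.17 and -0.07.

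In complex I, which holds an NADH-oxidising module, a quinone-binding module and a membrane arm that pumps protons, the lowest p belonged to NDUFV3, an accessory subunit of the NADH module (ENSG00000160194; GRCh38 chromosome 21, 42879644 to 42913304, plus strand). It was at 41.4, 39.9, 45.9 and 48.7 CPM in siCtrl replicates 1 to 4 and at 30.8, 31.4, 39.4 and 32.0 CPM in siNAT10 replicates 1 to 4. All 4 siNAT10 values lay below all 4 siCtrl values, by a small margin for replicate 3. The share of all genes separated in this way was not computed. The log2 fold change was -0.39 with an SE of 0.10 (adjusted p = 0.055, edgeR), just short of the threshold. Its partner in the same module, NDUFV1, which binds NADH and the flavin, stood at 134 ± 27.7 CPM in control cells and 144 ± 4.97 CPM in siNAT10 (SD, n = 4).

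NDUFB1, a small subunit of the membrane arm (chromosome 14, 92116122 to 92121917, minus strand), had 170, 144, 194 and 187 CPM in control cells and 125, 110, 179 and 149 CPM in knockdown cells. The siNAT10 values were lower within each batch, but those of batch 2 overlapped the siCtrl libraries of batch 1 (log2 fold change -0.32, SE 0.11, adjusted p = 0.135, edgeR). NDUFB2, of the same arm (chromosome 7, 140690777 to 140722790, plus strand), had the largest positive value in the complex. It was at 143, 110, 169 and 195 CPM in control cells and at 152, 142, 282 and 215 CPM in knockdown cells. The groups overlapped in batch 1 and did not in batch 2 (log2 fold change 0.33, SE 0.12, adjusted p = 0.170, edgeR).

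NDUFV2, a flavoprotein subunit of the NADH module that carries an iron-sulphur cluster, was counted at only 0.92 CPM on average, and its interval on the log2 scale ran from -1.35 to 0.59. Over the 7 genes of the nuclear catalytic core, 5 were tested, 3 were below 0, the median was -0.14 and none was called. Over the 25 tested accessory subunits, 16 were below 0 with a median of -0.07, and none was called.

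**Figure D3:**
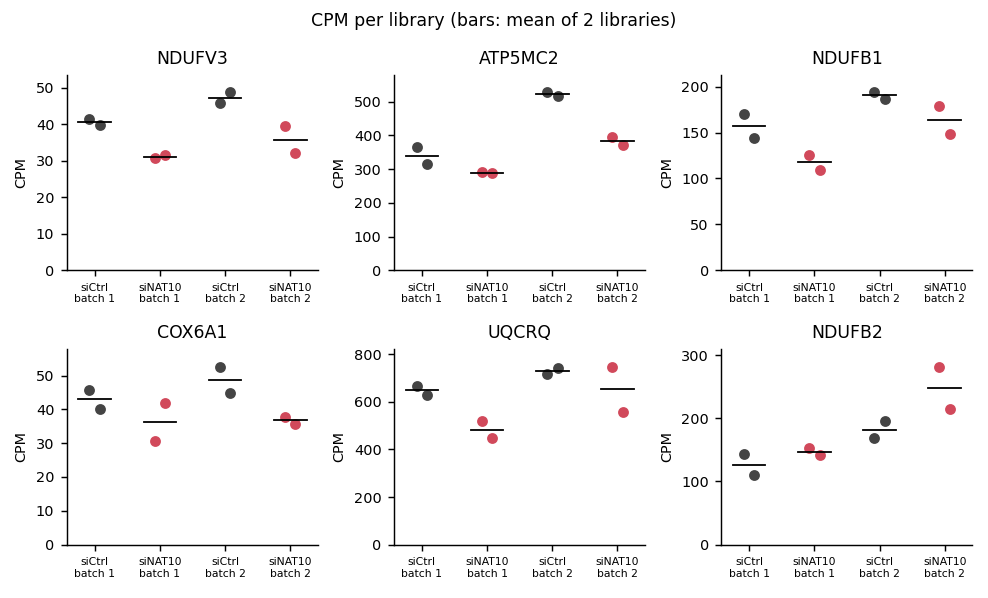
CPM in each library of NDUFV3, ATP5MC2, NDUFB1, COX6A1, UQCRQ and NDUFB2, by group and batch, from 0; bars are the means of 2 libraries. NDUFV3 and ATP5MC2 were lower in siNAT10 than in siCtrl in both batches, NDUFB2 was higher in batch 2, and in ATP5MC2 the siNAT10 libraries of batch 2 lie above the siCtrl libraries of batch 1.

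Complex II, which is encoded by nuclear genes alone, rested on few counts. SDHA was at 130, 127, 134 and 110 CPM in control cells and at 116, 134, 110 and 96.5 CPM in siNAT10, with overlapping groups (log2 fold change -0.14, adjusted p = 0.584, edgeR). SDHC, a membrane anchor, was at 11.7 ± 1.19 CPM in control cells and 9.87 ± 1.19 CPM in siNAT10 (SD, n = 4), a log2 fold change of -0.24. SDHD, the other anchor, was at 1.39 ± 0.585 and 1.80 ± 0.484 CPM (SD, n = 4), with a log2 fold change of 0.33. Both anchors have a near-identical copy of their 3' end elsewhere in the genome. The median of the complex was thus the value of SDHA. When genes with few counts were kept in the fit, SDHB entered the set with 2 counts in all. The median was then 0.07, while SDHA itself was -0.14.

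In complex III, UQCRQ, a small subunit next to cytochrome b (chromosome 5, 132866630 to 132868847, plus strand), lay lowest. Its siCtrl values were 668, 629, 718 and 744 CPM and its siNAT10 values 520, 448, 749 and 557 CPM. siNAT10 replicate 3 was above all siCtrl libraries, while the other 3 siNAT10 libraries were below them (log2 fold change -0.29, SE 0.12, adjusted p = 0.219, edgeR). CYC1, cytochrome c1, was at 250 ± 44.1 CPM in control cells and 213 ± 22.8 CPM in siNAT10 (SD, n = 4), with a log2 fold change of -0.22. UQCRFS1, the Rieske iron-sulphur protein, was at 61.1 ± 5.60 and 55.8 ± 2.78 CPM (SD, n = 4), and UQCRC1, a core protein, at 215 ± 17.7 and 213 ± 16.0 CPM. UQCR10 had the highest log2 fold change of the complex, 0.15.

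UQCRH, the hinge protein that cytochrome c docks near, and UQCRHL, a retrocopy of it, were at 522 and 24.0 CPM in control cells and at 522 and 23.3 CPM in siNAT10. UQCRH was thus 18.5 to 27.2 times as abundant as its copy across libraries. The log2 fold change was 0.0039 for UQCRH and -0.04 for UQCRHL, and both signs turned under other settings. The split of reads between them is uncertain.

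In complex IV, COX6A1 had the lowest value (chromosome 12, 120438090 to 120440737, plus strand), and it is the subunit isoform that liver uses. It was at 45.8, 40.2, 52.7 and 44.9 CPM in control cells and at 30.7, 41.9, 37.8 and 35.8 CPM in siNAT10. The groups overlapped through siNAT10 replicate 2 and siCtrl replicate 2 (log2 fold change -0.32, SE 0.12, adjusted p = 0.177, edgeR). COX5A, a matrix-side subunit, was at 258 ± 14.0 CPM in control cells and 219 ± 14.7 CPM in siNAT10 (SD, n = 4; log2 fold change -0.23). COX7B was at 61.1 ± 8.01 and 51.4 ± 3.14 CPM (SD, n = 4; log2 fold change -0.25), and COX8A at 402 ± 49.1 and 357 ± 36.5 CPM (log2 fold change -0.17).

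Several abundant subunits of complex IV had fitted values nearer 0. COX4I1 was at 618 ± 117 CPM in control cells and 578 ± 95.7 CPM in siNAT10, and COX7A2 at 735 ± 108 and 714 ± 145 CPM (SD, n = 4). COX7A2L, a relative of COX7A2 that takes part in supercomplexes, was at 235 ± 39.1 and 232 ± 16.9 CPM, and COX6B1 at 423 ± 43.8 and 424 ± 64.7 CPM (SD, n = 4). Fitted values for COX7A2L and COX6B1 were -0.0065 and -0.0019, and both turned positive with DESeq2, RLE size factors or library size alone. NDUFA4 had 48.3 ± 2.38 CPM in control cells and 45.0 ± 4.32 CPM in siNAT10 (SD, n = 4).

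In complex V, 3 genes (ATP5MC1, ATP5MC2 and ATP5MC3) encode the same mature c subunit behind different import sequences. ATP5MC2 (ENSG00000135390; chromosome 12, 53632726 to 53677408, minus strand) was at 366, 314, 528 and 516 CPM in control cells and at 292, 287, 395 and 373 CPM in knockdown cells. It was lower in siNAT10 within each batch, while the siNAT10 libraries of batch 2 were above the siCtrl libraries of batch 1 (log2 fold change -0.34, SE 0.10, adjusted p = 0.089, edgeR). ATP5MC3 was at 1092, 1108, 1419 and 1462 CPM in control cells and at 1037, 959, 1311 and 1224 CPM in knockdown cells, with the same order within batches (log2 fold change -0.16, adjusted p = 0.450, edgeR). ATP5MC1 was at 353 ± 27.5 and 325 ± 34.2 CPM (SD, n = 4; log2 fold change -0.12), and it turned positive in batch 2 alone. ATP5MC3 held between 60.0% and 63.8% of the counts of the 3 genes in each library, and ATP5MC2 held 20.7% ± 2.61 in siCtrl and 18.7% ± 0.56 in siNAT10 (SD, n = 4).

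The catalytic F1 head had 5 of 5 genes below 0 with a median of -0.06. ATP5F1B, the beta subunit that makes ATP, was at 306, 272, 276 and 272 CPM in control cells and at 236, 267, 263 and 244 CPM in knockdown cells. The groups did not overlap, by a small margin of 267 against 272 CPM (log2 fold change -0.16, adjusted p = 0.473, edgeR). As for NDUFV3, the share of all genes separated in this way was not computed. ATP5F1A, the alpha subunit, was at 260 ± 68.2 and 246 ± 29.3 CPM (SD, n = 4) with overlap. ATP5F1C, the gamma shaft, varied least of the tested members, between 112 and 131 CPM. The peripheral stalk had 4 of 4 genes below 0 (median -0.06), and the small membrane subunits 4 of 5 (median -0.12). ATP5MGL, a rarely counted relative of ATP5MG, had the lowest fitted value of the complex, -0.39, at 8.86 ± 1.57 and 6.77 ± 0.68 CPM (SD, n = 4).

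CYCS, cytochrome c, which carries electrons from complex III to complex IV, was at 124 ± 35.5 CPM in control cells and 133 ± 29.4 CPM in siNAT10 (SD, n = 4; log2 fold change 0.11). The 8 NDUFAF assembly factors had 6 values below 0 and a median of -0.24. NDUFAF6 was at 12.1, 13.2, 16.3 and 16.1 CPM in control cells and at 17.4, 16.1, 21.3 and 19.1 CPM in siNAT10, with an overlap only between batches (log2 fold change 0.36, adjusted p = 0.114, edgeR). NDUFAF3 was at 81.7 ± 5.60 and 68.8 ± 5.75 CPM (SD, n = 4; log2 fold change -0.25). Over all 60 tested assembly factors of the 5 complexes, 37 were below 0, the median was -0.06 and none was called.

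The mitochondrially encoded partners of these subunits were not called by siRNA either. Of 13 genes, 10 were below 0 with a median of -0.18, ranging from -0.40 to 0.44, and 0 were called (edgeR). At an unadjusted p under 0.05, 4 were lower and 1 higher (edgeR), where 15.7% of all genes were past it in either direction. The batches differed in sign: the median was -0.28 in batch 1 with 12 of 13 below 0, and 0.07 in batch 2 with 6 of 13 below 0. The difference between batches had an unadjusted p under 0.05 for 3 of the 13, beside 3.04% of all genes, and was called for none (edgeR). Among 12 tested regulators of mitochondrial gene expression the median was 0.04, and among 6 tested carriers of ATP, ADP and phosphate it was -0.05, with no call in either list.

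The same fit gave the difference between the batches, which hold equal numbers of both groups. A batch holds only 2 replicate numbers, and the test takes the 4 libraries of a batch as independent. Whether same-numbered libraries deviate together beyond their batch was not tested. If they do, the p-values of the batch test may be too small. Of the 82 members, 26 rose in batch 2 (adjusted p under 0.05, edgeR), where 13% of all genes did, and 4 fell, where 12.2% did. The 26 were 10 of 30 subunits of complex I, 1 of 9 in complex III, 4 of 13 in complex IV, 7 of 18 in complex V, 3 of 8 assembly factors and CYCS. The median over subunits was 0.20 on the log2 scale, against -5.9e-05 over all genes. Without siNAT10 replicate 3 the count of risen members was 9, without siCtrl replicate 2 it was 15 and without siNAT10 replicate 2 it was 17. The count of fallen members was 0 without siNAT10 replicate 2 or 3, 1 without siCtrl replicate 1 or 4 or siNAT10 replicate 1, 2 without siCtrl replicate 2 or 3, and 2 with DESeq2.

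ATP5PF, coupling factor 6 of the stalk, rose most. Its levels in batch 1 were 99.0 and 86.5 CPM (siCtrl) and 93.5 and 97.7 CPM (siNAT10), and in batch 2 they were 227 and 136 CPM (siCtrl) and 214 and 121 CPM (siNAT10). All batch 2 libraries were higher, and both libraries of replicate 3 were far above those of replicate 4. The log2 difference was 0.89 (adjusted p = 0.0012, edgeR). ATP5PD, another stalk subunit, rose by 0.79 and ATP5ME by 0.69. In ATP5PD and ATP5ME, too, both replicate 3 libraries were the highest.

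In complex I the called rises were led by NDUFA1 (0.65) and NDUFB2 (0.64), and those that rose as well included NDUFS5, NDUFS6, NDUFA10, NDUFA12, NDUFB1, NDUFB3 and NDUFB6. UQCR10 rose by 0.56 in complex III. COX4I1 rose by 0.38 in complex IV, together with COX7C, COX6C and COX7A2L. ATP5MC2 rose by 0.51 and CYCS by 0.57. The members that fell were CYC1 (-0.31), ATP5F1D (-0.35), NDUFA4L2 (-0.68) and COX6B2 (-1.33), the last of them with under 2 CPM in each library. In complex V, ATP5F1D fell while ATP5F1A rose by 0.38, so fitted values within the F1 head had opposite signs. The batches overlapped in ATP5F1A, with 232.5 CPM in siNAT10 replicate 4 of batch 2 and 233.8 CPM in siNAT10 replicate 1 of batch 1. The fall of ATP5F1D was not called without siNAT10 replicate 2 or 3 (edgeR).

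**Figure D4:**
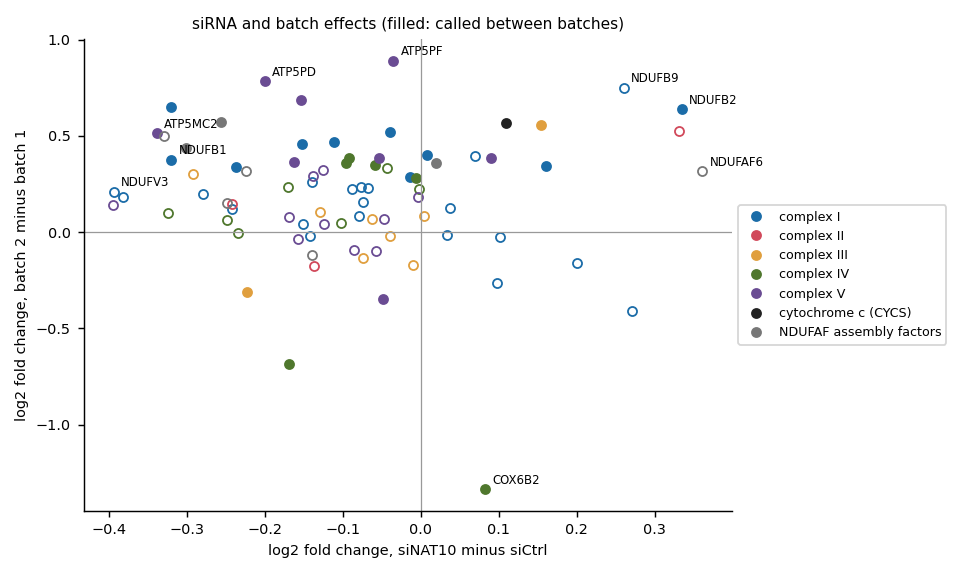
Fitted log2 difference between batches (batch 2 minus batch 1) against the fitted siRNA log2 fold change (siNAT10 minus siCtrl) for the 82 tested genes; filled points were called between batches. ATP5PF and ATP5PD lie highest, COX6B2 lowest, and no point was called on the siRNA axis.

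Mitochondrially encoded subunits moved the same way between batches: 10 of 13 rose in batch 2 and 0 fell, with a median of 0.68. MT-ATP6 went from 36.5 ± 5.80 CPM in batch 1 to 74.5 ± 7.37 CPM in batch 2 (SD, n = 4; log2 difference 1.03, adjusted p = 1.3e-05, edgeR). Of the regulators, 5 rose and 1 fell. NRF1 went from 12.5 ± 0.58 to 18.4 ± 1.97 CPM (SD, n = 4; adjusted p = 0.0030, edgeR), TFAM from 72.9 ± 2.99 to 96.3 ± 5.57 CPM and PPARGC1A from 29.2 ± 3.95 down to 16.2 ± 1.34 CPM. The part of these regulators in the members' levels was not tested.

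Promoters are shown for the members that rose in batch 2 and hold an NRF1 word upstream of their start. The batch call was part of this choice, so no link between word and rise is read from it. Sites of the ETS and YY1 words are not shown, although the risen members ATP5MK and ATP5PD hold an ETS word upstream. RefSeq promoter windows (250 bases before to 50 after the gene start, build GRCh38.p14) were matched for 78 of 98 members and searched on both strands for GCATGCGC (NRF1), CCGGAAGT (ETS factors such as GABPA) and AAGATGGC (YY1). The NRF1 word reads GCGCATGC on the other strand, so overlapping matches on both strands were counted once per promoter. Each line below gives 30 bases on the gene's strand, 5' to 3', with the match in capitals.
ATP5MC2: gcccgggtcacGCATGCGCtgagccttcct
ATP5ME: cgccgctgacgGCGCATGCgtgcgcccagc
ATP5PF: ccactcaaagaGCGCATGCgtacagagcaa
CYCS: catgctcgccaGCATGCGCgcgcaggtcct
NDUFS6: ccagaagccgtGCGCATGCgttagcgctaa

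These stretches lie at chr12:53676105-53676134 (ATP5MC2, minus strand), chr4:674336-674365 (ATP5ME, minus), chr21:25735156-25735185 (ATP5PF, minus), chr7:25125411-25125440 (CYCS, minus) and chr5:1801350-1801379 (NDUFS6, plus). The words start 40, 78, 120, 169 and 46 bases before the RefSeq start in that order. NDUFAF4 was the other risen member with the word, and there it lies after the start. The NRF1 word was in 16 of 78 members' promoters (20.5%), in 5.79% of the 8932 promoters of tested protein-coding genes and in 3.27% of all 27305. The YY1 word was in 14.1% of members and 5.72% of tested genes, and the ETS word in 12.8% and 9.29%. The promoters of members had 60.1% GC and those of tested genes 64.8%.

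Among members that rose in batch 2, 6 of 22 with a promoter held the NRF1 word, and among the other tested members 7 of 42 did. The other words went the other way: YY1 in 1 of 22 against 6 of 42, and ETS in 2 of 22 against 6 of 42. Any of the 3 words was in 8 of 22 (36.4%) against 17 of 42 (40.5%). None of these differences was tested. COX6A1, whose window holds 2 such words, was not called between batches or by siRNA, and the window of NDUFV3 held none of the 3 words. A match is a description of the letters in the window and not a bound site.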

How the data were processed

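Polyadenylated RNA from 8 HepG2 samples was read at the 3' end with a Lexogen QuantSeq kit, whose orientation is FWD in the series text and REV in the sample protocols. The deposited table holds counts per gene, whole numbers without normalization. Per the submitters' processing notes, Trim Galore 0.6.10, cutadapt 3.5, STAR 2.7.9a and featureCounts of Subread were used with GRCh38. The annotation release and the strand and multimapping settings are not given in the sources used here. Reads that overlap genes or copies can be lost or moved by such settings. Of 86369 gene identifiers, 61458 matched GENCODE 44, which gave symbols and coordinates, and 0 sample columns were left unused.

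Members and gene lists were chosen with earlier results of these data known. Genes were kept by filterByExpr (minimum count 10), scaled by TMM and fitted over all 13840 genes with edgeR 4.0.16 in R 4.3.3 (quasi-likelihood, batch and siRNA as terms), and called where the Benjamini-Hochberg adjusted p was below 0.05. Levels are CPM on TMM-scaled library sizes, and mean log2 CPM used a prior count of 2. Genes named by rule were the highest and lowest in level and in fold change of each complex, the isoform groups, SDHA to SDHD, CYC1, UQCRFS1, CYCS and the largest called batch differences. Other members, and the regulators, were named after their values were seen, and 1 gene of the rule is not reported here. 3' ends were compared with BLAST+ 2.17.0. Deviations of same-numbered libraries from their group means had correlations of 0.39, 0.38, 0.45 and 0.36 over genes for replicates 1 to 4. Same-numbered libraries share a batch, and the batch difference was not removed first. These values therefore cannot show a pairing beyond the batch. A replicate block was fitted as an alternative to the batch term. The alternatives were DESeq2 1.42.0, the block, no batch term, scaling by RLE factors or by library size only, no filter, a filter at a mean of 10 counts, fits within a batch, and leaving out a library. Library totals of 9731718 to 27977110 counts put 1 count at 0.0348 to 0.0978 CPM, and intervals cover the spread between these libraries.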

Additional observations from a re-analysis of the deposited data

Results flagged for a closer look

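Each of 178 sets of 4 values (the tested members, NAT10 and the complex means in each group) was examined for a library far from the others, and 10 stood out where chance flags about 1 in 20, or 8.9. Of the 10, 5 were siNAT10 replicate 3, each time the highest. ATP5ME had 739 CPM there against 346 to 394 CPM in the other siNAT10 libraries, NDUFA1 had 320 against 172 to 194 CPM and ATP5F1A had 290 against 229 to 234 CPM. In the same library NDUFA2 had 154 against 119 to 122 CPM, and NDUFV3, the member with the lowest p, had 39.4 against 30.8 to 32.0 CPM. siNAT10 replicate 1 was lowest for NDUFAB1, the acyl carrier protein of complex I (175 against 236 to 245 CPM), and for NDUFC1 (80.7 against 99.2 to 102 CPM). It was highest for NDUFV2 (1.26 against 0.587 to 0.627 CPM), a level near that of single counts. In the siCtrl group ATP5F1B was 306 CPM in replicate 1 against 272 to 276 CPM, and NDUFA13 was 10.5 CPM in replicate 3 against 4.19 to 5.09 CPM.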

How the results depend on the processing

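The call of no member by siRNA on the lower side gave 1 member with the replicate block (NDUFV3) and 2 with DESeq2 (NDUFV3 and ATP5MC2), and the block changed no other siRNA call among the members. On the higher side the count was 0 in each alternative run. The log2 fold change of NAT10 was -1.58 in batch 2 alone, short of the threshold there (adjusted p = 0.086, edgeR), where 4 libraries were fitted. With DESeq2, 2 members were called lower in batch 2. With a library left out, 9 to 32 members were called higher in batch 2 and 0 to 3 lower. Medians then ran from -0.11 to -0.020 in complex I, -0.19 to -0.051 in complex II, -0.16 to -0.0055 in complex III, -0.14 to -0.053 in complex IV and -0.16 to -0.040 in complex V. With no filter on low counts the median of complex II was 0.070, where SDHB entered the set with 2 counts in all. Medians of complexes I, III, IV and V were below 0 in all 18 settings, but that of complex III was only -1.5e-04 with batch 1 fitted alone. The settings reuse the same 8 libraries, and they include the choice of well-counted subunits given below, made after seeing the data. Some fitted values of single members changed sign. COX6B1 was 0.0023 with no batch term, 0.0075 with DESeq2, 0.0067 with RLE size factors, 0.034 with library size alone and 0.056 in batch 2 alone. COX7A2L was 0.0031 with DESeq2, 0.0019 with RLE size factors, 0.033 with library size alone and 0.10 in batch 1 alone. With library size alone ATP5PF was 0.0032 and UQCRHL 0.0051. In batch 1 alone ATP5PF was 0.046, NDUFA4L2 0.032, NDUFV2 0.19 and UQCRHL 0.13. In batch 2 alone ATP5MC1 was 0.10 and UQCRH -0.057, and UQCRH was -0.0031 with no filter. With a library left out, values ran from -0.10 to 0.0081 for ATP5F1D, -0.016 to 0.18 for ATP5MK, -0.19 to 0.15 for ATP5PF, -0.063 to 0.081 for COX6B1, -0.20 to 0.30 for COX6B2, -0.14 to 0.050 for COX7A2, -0.053 to 0.051 for COX7A2L, -0.32 to 0.015 for NDUFA4L2, -0.79 to 0.090 for NDUFV2, -0.042 to 0.065 for UQCRH and -0.17 to 0.17 for UQCRHL. The cause was not tested. Over the 51 tested subunits with a mean of at least 5 CPM and neither an overlap nor a copy at the 3' end, a choice made after seeing the data, 43 were below 0 with a median of -0.08, and the median of complex V was -0.057. The widest intervals were those of COX6B2 and NDUFV2, at mean levels of 0.62 and 0.92 CPM.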

Other observations

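Processed pseudogenes of these families carried counts of their own. Of 181 pseudogene entries with a symbol of the rule, 156 were at 0 in all libraries, and the rest summed to a mean of 108 CPM. ATP5MGP2 had 41.7 CPM, NDUFV2P1 26.0 CPM, ATP5MKP1 22.1 CPM and NDUFAF2P1 13.3 CPM, and 6 entries reached a mean of 1 CPM. NDUFV2 itself had 0.92 CPM, so its pseudogene was listed above the gene. NDUFAF2P1 likewise stood above NDUFAF2, which had 10.1 CPM. The parts of reads from gene and pseudogene in these values were not tested.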
